A study of Mus musculus with 56 samples.

Results

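Cortical and medullary thymic epithelial cells (cTECs and mTECs) were compared at day 6 postpartum (D6). The samples were chosen by their labels alone, as all samples of time point D6, and they were 3 samples of cTECs and 3 of mTECs out of 56 samples in the series. The series followed both cell types through the involution of the thymus in pregnancy and its regrowth after birth, with 3 samples per cell type in non-pregnant controls (NPC), in late gestation (D-2) and at D0, D3, D6 and D12, and 1 sample per cell type at 10 other time points. The cells at D6 came from B6.SJL females (B.6SJL-Ptprca Pep3b/BoyJ-CD45.1), which had been mated with BALB/cJ males and whose pups were taken away at birth. Both groups therefore shared strain, mating, absence of lactation and time after parturition. No agent was given, and the CD45.1 allele of the strain was common to all samples. The age of the females is not given in the sources used here. Thymi were digested with papain, DNase and collagenase IV, epithelial cells were enriched on anti-EpCAM beads, and EpCAM+CD45- cells were sorted by binding of the lectin UEA1, with UEA1- cells taken as cTECs and UEA1+ cells as mTECs. Each sample was 1 library of polyA RNA from 1 mouse. The cTECs were thus defined by the lack of UEA1 binding and not by a marker of their own. Replicates are named by the number in their titles, which are cTEC replicates 2, 4 and 5 and mTEC replicates 1, 2 and 4, and values per sample are given in that order.

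The thymic cortex is where T cell precursors commit, rearrange their receptor genes and are positively selected on peptides that cTECs make with proteases of their own. The medulla is where surviving thymocytes are screened against self, and for that purpose mTECs express a very wide range of genes of other tissues under AIRE and FEZF2 and attract thymocytes with CCR7 ligands. Lipid genes in epithelium serve membrane growth, barrier lipids, fuel use and lipid mediators, and FABP5 is the epidermal type of the proteins that carry fatty acids inside the cell.

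The D6 libraries held 9562848 to 29884406 expected counts for cTECs and 4561208 to 16023121 for mTECs, and the smallest of these, mTEC replicate 4, was also the smallest of all 56 samples. The library of cTEC replicate 5 stood apart from the other cTECs. It held 20120 genes with a count, against 16326 and 16449, its mitochondrial transcripts took 1.16% of counts against 2.66% and 2.72%, and its summed FPKM of 15 immediate-early genes was 15847 against 4278 and 4292. It also held the most *Pth* (143, 121 and 1363 FPKM in the 3 cTEC samples), the most *Chga* (119, 83.3 and 748 FPKM) and the most *Cxcl10* (241, 227 and 1528 FPKM). Among mTECs, replicate 1 had the highest summed immediate-early genes, 9942 FPKM against 5104 and 2403. The part of these libraries in the results was not tested beyond leaving each out in turn.

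Over the whole transcriptome, 17303 genes reached a mean FPKM of 0.5 in either cell type and were tested with limma-voom. A call required a 2-fold difference or more together with a p, adjusted by Benjamini-Hochberg, no larger than 0.01. By this rule 739 genes differed (4.27% of those tested), 257 higher in cTECs (1.49%) and 482 higher in mTECs (2.79%). Of the 739 called genes, 735 had no overlap between the 3 cTEC and the 3 mTEC samples, but the same was true of 5882 of all genes tested (33.99%), and 5519 (31.9%) passed an unadjusted p of 0.05. The filter let 2423 genes through by their mTEC level alone and 956 by their cTEC level alone. Genes let through by 1 cell type alone had to have the higher mean FPKM there, although their fitted log2 fold change could take the other sign. The number of such genes is given for some of the lists that held several. The median log2 fold change (cTEC minus mTEC) over all genes tested was −0.11. The median absolute log2 fold change of the calls was 2.39 on the mTEC side and 1.62 on the cTEC side. Of the 482 mTEC-higher genes, 44 (9.13%) had a mean below 0.5 FPKM in cTECs, and of the 257 cTEC-higher genes, 3 (1.17%) did in mTECs. Single libraries mattered to these counts, since 386 genes were called without cTEC replicate 4, 462 without cTEC replicate 5, 316 without mTEC replicate 1 and 340 without mTEC replicate 4, of which 121, 153, 57 and 74 were higher in cTECs. Without mTEC replicate 2, 159 were higher in cTECs.

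**Figure D1:**
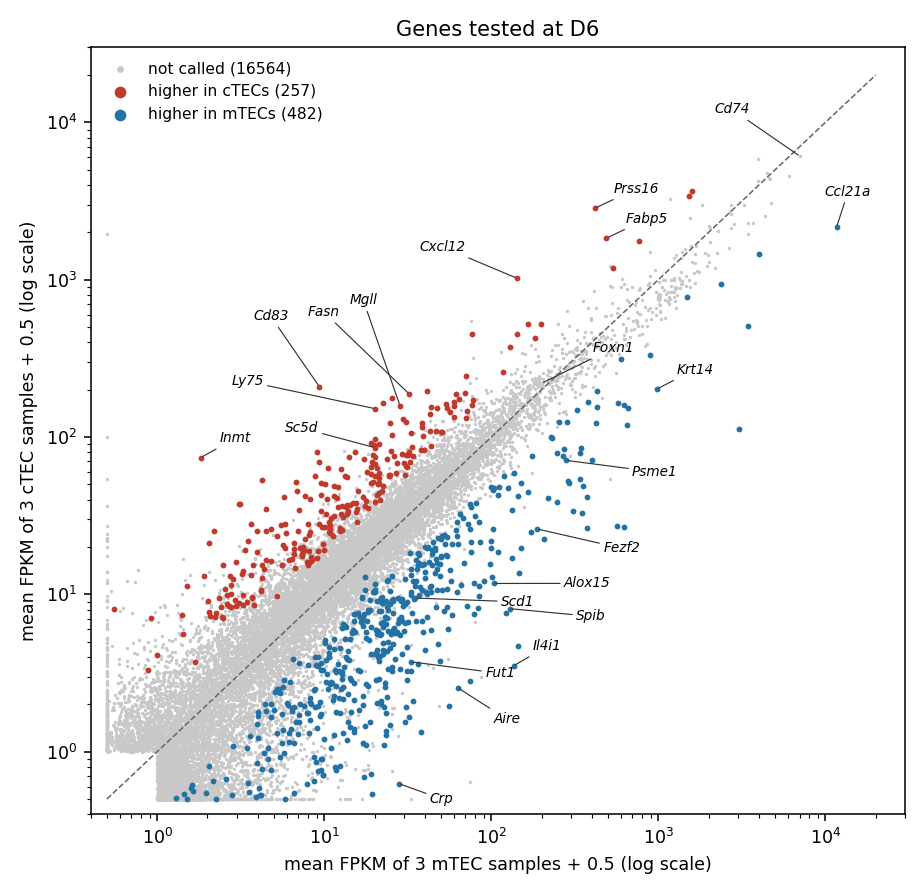
Mean FPKM + 0.5 of the 3 mTEC samples (x, log axis) against that of the 3 cTEC samples (y, log axis) for the 17303 genes tested at D6, with called genes in colour and a dashed line of equal level. Called genes lie on both sides, 257 above the line and 482 below it, and 44 of the latter have a mean below 0.5 FPKM in cTECs.

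The labels were checked against marker genes, each of which lay on the side of its label, with a background of each cell type's genes in the other. *Prss16* (ENSMUSG00000006179.8, chromosome 13, 22002173 to 22009742, minus strand), the thymus-specific serine protease of the cortex, was at 2564, 3046 and 2925 FPKM in cTECs and 242, 624 and 377 FPKM in mTECs. Every cTEC sample lay above every mTEC sample by a wide margin, with means of 2845 ± 251 FPKM in cTECs and 415 ± 194 FPKM in mTECs (SD, n = 3; log2 fold change 2.82, SE 0.30, adjusted p = 0.000565 from limma-voom). In bulk samples, fewer cells of a type and less RNA per cell cannot be told apart. *Ly75*, the cortical surface receptor CD205, was at 128, 134 and 191 FPKM in cTECs and 10.9, 29.9 and 18.3 FPKM in mTECs and also did not overlap (log2 fold change 3.00, SE 0.33, adjusted p = 0.000616 from limma-voom). *Psmb11* (ENSMUSG00000072423.4, chromosome 14, 54621433 to 54629556, plus strand), the thymoproteasome subunit that defines cTECs, was at 446, 377 and 223 FPKM in cTECs and 53.9, 178 and 108 FPKM in mTECs. All 3 cTEC samples were higher, but the difference missed the threshold (log2 fold change 1.65, SE 0.41, adjusted p = 0.0267 from limma-voom).

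On the medullary side, *Aire* (ENSMUSG00000000731.15, chromosome 10, 78030022 to 78043610, minus strand), the regulator of promiscuous gene expression, was at 3.41, 0.81 and 1.88 FPKM in cTECs and 116, 26.7 and 46.4 FPKM in mTECs. It was low in every cTEC sample and varied widely among mTECs, with replicate 1 the highest (log2 fold change −5.30, SE 0.94, adjusted p = 0.00684 from limma-voom). *Fezf2*, the other such regulator, was at 21.4, 21.9 and 33.3 FPKM in cTECs and 185, 188 and 189.6 FPKM in mTECs and was almost the same in all 3 mTEC samples (log2 fold change −3.00, SE 0.18, adjusted p = 4.07e-05 from limma-voom). *Ccl21a* (ENSMUSG00000094686.1, chromosome 4, 42772860 to 42773993, minus strand), a CCR7 ligand, was at 1753, 2478 and 2258 FPKM in cTECs and 11478, 10541 and 12968 FPKM in mTECs, the highest level of any gene in mTECs (log2 fold change −2.50, SE 0.19, adjusted p = 9.03e-05 from limma-voom). It has near-identical genomic copies that can share its reads, so its exact level is uncertain. In limma-voom with 1 library left out, the call of *Aire* was lost without any one library but mTEC replicates 1 and 2 (adjusted p up to 0.0403), and *Prss16*, *Ly75*, *Fezf2* and *Ccl21a* kept theirs.

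**Figure D2:**
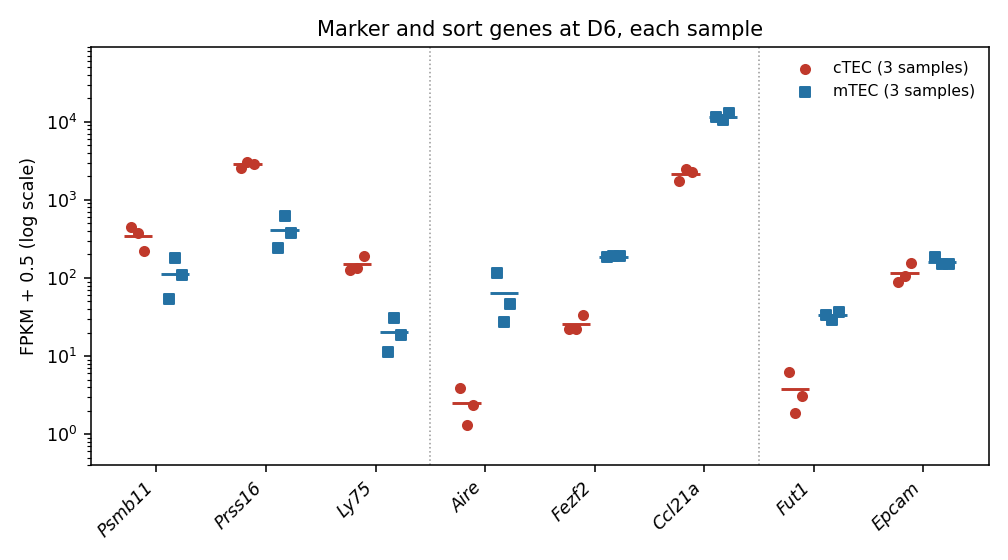
FPKM + 0.5 (log axis) of 3 cTEC markers, 3 mTEC markers and 2 genes of the sort in each D6 sample, with circles for 3 cTEC samples, squares for 3 mTEC samples and a bar at each mean. The groups do not overlap for any gene but *Epcam*, and *Prss16* and *Ccl21a* remain well above 0 in the opposite cell type.

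The genes of the sort were examined next. *Epcam*, the surface protein used to enrich the cells, was at 87.2, 105 and 156 FPKM in cTECs and 184, 149.5 and 149.9 FPKM in mTECs, and the groups overlapped (log2 fold change −0.56, adjusted p = 0.102 from limma-voom). *Ptprc*, which encodes the leukocyte protein CD45 used to exclude cells, stayed at or below 3.06 FPKM in all 6 samples. Its log2 fold change was 2.37, toward cTECs, and it was not called. *Fut1*, a fucosyltransferase that can make the sugar bound by UEA1, was at 5.73, 1.34 and 2.60 FPKM in cTECs and 33.4, 28.4 and 36.3 FPKM in mTECs (log2 fold change −3.59, SE 0.39, adjusted p = 0.000581 from limma-voom). It was the 1 call among 12 tested genes of the sort and of fucose transfer (8.33%), and since the sort used this sugar, its difference is no independent observation.

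Promoters are shown for 6 of the genes described below whose levels set the cell types apart. They are the 250 bases upstream of the RefSeq start on GRCm38.p6 for *Cxcl12*, *Fasn* and *Sc5d*, whose higher level in cTECs was called in all alternatives, for *Spib* and *Krt14*, for which the same held in mTECs, and for *Aire*, which defines mTECs. They lie at chr6:117168285-117168534, plus strand (*Cxcl12*), chr11:120824548-120824797, minus strand (*Fasn*), chr9:42264301-42264550, minus strand (*Sc5d*), chr10:78043611-78043860, minus strand (*Aire*), chr7:44532072-44532321, minus strand (*Spib*) and chr11:100206031-100206280, minus strand (*Krt14*), and none overlaps an annotated exon. The window of *Krt14* lies in an intron of a longer annotated transcript of the same gene. Each is written 5′ to 3′ in the direction of the gene. Capitals mark GACGC, the core bound by FOXN1, or its reverse complement GCGTC, and GGGNNNNCCC, the outer bases of many NF-κB sites, which reads the same on both strands. No motif searched contains another.
Cxcl12: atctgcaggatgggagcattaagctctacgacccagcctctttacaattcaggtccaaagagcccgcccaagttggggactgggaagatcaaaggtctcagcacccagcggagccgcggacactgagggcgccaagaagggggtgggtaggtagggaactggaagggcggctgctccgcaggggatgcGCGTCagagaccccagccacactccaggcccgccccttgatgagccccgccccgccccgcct
Fasn: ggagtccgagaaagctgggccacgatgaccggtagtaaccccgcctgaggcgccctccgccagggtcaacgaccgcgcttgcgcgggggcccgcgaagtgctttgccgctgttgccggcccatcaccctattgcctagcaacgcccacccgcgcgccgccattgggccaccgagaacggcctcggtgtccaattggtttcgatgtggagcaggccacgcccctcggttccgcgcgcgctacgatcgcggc
Sc5d: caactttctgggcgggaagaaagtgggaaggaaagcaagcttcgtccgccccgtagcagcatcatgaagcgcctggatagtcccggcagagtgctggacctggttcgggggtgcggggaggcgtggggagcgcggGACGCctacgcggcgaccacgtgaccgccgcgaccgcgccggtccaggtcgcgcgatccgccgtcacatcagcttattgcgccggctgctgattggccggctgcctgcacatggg
Aire: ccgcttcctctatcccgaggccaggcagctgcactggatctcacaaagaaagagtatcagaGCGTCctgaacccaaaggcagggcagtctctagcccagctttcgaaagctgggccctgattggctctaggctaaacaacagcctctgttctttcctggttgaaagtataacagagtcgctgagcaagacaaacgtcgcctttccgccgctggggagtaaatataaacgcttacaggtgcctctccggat
Spib: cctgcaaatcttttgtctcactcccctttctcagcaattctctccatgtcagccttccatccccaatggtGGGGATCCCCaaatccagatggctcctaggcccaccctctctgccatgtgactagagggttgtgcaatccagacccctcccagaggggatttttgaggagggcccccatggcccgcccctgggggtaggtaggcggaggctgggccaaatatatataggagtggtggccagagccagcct
Krt14: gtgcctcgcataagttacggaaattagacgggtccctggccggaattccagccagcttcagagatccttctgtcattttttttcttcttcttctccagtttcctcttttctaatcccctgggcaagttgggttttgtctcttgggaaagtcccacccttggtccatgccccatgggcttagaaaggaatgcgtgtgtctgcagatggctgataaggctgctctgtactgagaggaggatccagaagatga

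A match to these letters is a description and not a binding site. The windows of *Cxcl12*, *Sc5d* and *Aire* held 1 GACGC each, that of *Spib* held 1 GGGNNNNCCC, and those of *Fasn* and *Krt14* held neither. The number of CpG dinucleotides was 14 in *Cxcl12*, 33 in *Fasn*, 30 in *Sc5d*, 11 in *Aire*, 2 in *Spib* and 5 in *Krt14*. Promoters were found for 197 of the 257 genes called higher in cTECs (264 promoters) and for 332 of the 482 called higher in mTECs (431 promoters). GACGC on either strand was in 36.4% of the former, 21.3% of the latter, 34.7% of 15130 promoters of genes tested and 22.6% of all 32851 promoters in the table. GGGNNNNCCC was in 19.7%, 20.4%, 14.6% and 10.3% of the same groups. The E-box CACGTG was in 8.71%, 6.96%, 7.71% and 6.02%, and TATAAA or its reverse complement TTTATA in 4.92%, 8.12%, 7.32% and 12.4%. The median number of CpG dinucleotides was 16 in promoters of the cTEC-higher genes, 10 in those of the mTEC-higher genes, 14 over the genes tested and 6 over the table. GACGC holds 1 CpG of its own, and the groups differed in CpG in the same direction.

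Among the genes with the largest fold change toward cTECs, *Inmt*, an indolethylamine N-methyltransferase, was at 60.1, 85.00 and 75.1 FPKM in cTECs and 0.07, 2.56 and 1.32 FPKM in mTECs (log2 fold change 6.84, SE 1.08, adjusted p = 0.00402 from limma-voom). *Cd83* (ENSMUSG00000015396.3, chromosome 13, 43784775 to 43803132, plus strand), which keeps MHC class II on the cell surface, was at 193, 246 and 188 FPKM in cTECs and 6.82, 12.8 and 6.92 FPKM in mTECs. It did not overlap between the groups (log2 fold change 4.48, SE 0.28, adjusted p = 4.67e-05 from limma-voom). The other 8 were *Snhg11*, a host gene of small nucleolar RNAs, *Ppp1r27*, *Mtcl1*, *Rapgef3*, *Cyp26b1*, the sodium channel *Scn1a*, the cilium gene *Cys1* and *Nefm*, with log2 fold changes from 3.60 to 4.31 and no sample of mTECs above 6.29 FPKM. *Cyp26b1*, which degrades retinoic acid, was at 31.5, 25.02 and 18.02 FPKM in cTECs and 1.32, 2.43 and 1.34 FPKM in mTECs (log2 fold change 3.78, SE 0.45, adjusted p = 0.000852 from limma-voom), and *Nefm*, a neurofilament subunit, was at 51.7, 34.9 and 24.2 FPKM in cTECs and 2.57, 3.83 and 1.42 FPKM in mTECs (log2 fold change 3.60, SE 0.51, adjusted p = 0.0022 from limma-voom). *Mtcl1*, a microtubule crosslinking protein, was at 24.3, 17.2 and 20.7 FPKM in cTECs and 0.94, 1.76 and 1.90 FPKM in mTECs (log2 fold change 3.95, SE 0.31, adjusted p = 0.000106 from limma-voom). Leaving out 1 library in limma-voom ended the calls of *Inmt* without cTEC replicate 5 or mTEC replicate 4 (adjusted p up to 0.0168), *Snhg11* without any one library but cTEC replicates 4 and 5 (adjusted p up to 0.0499), *Ppp1r27* without mTEC replicates 1, 2 and 4 (adjusted p up to 0.0246), *Rapgef3* without any one library but cTEC replicate 4 (adjusted p up to 0.038), *Cyp26b1* without mTEC replicate 1 (adjusted p up to 0.0121), *Scn1a* without mTEC replicates 1 and 4 (adjusted p up to 0.0288), *Cys1* without any one library but cTEC replicates 2 and 4 (adjusted p up to 0.0191) and *Nefm* without mTEC replicates 1 and 2 (adjusted p up to 0.0264).

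Toward mTECs, the largest fold changes were those of *Crp*, *Adm2*, *Ppp1r1a*, *Ms4a10*, *Gm12407*, *Ptprq*, *Il4i1*, *Relt*, *Utf1* and *Gfra2*. *Crp* (ENSMUSG00000037942.5, chromosome 1, 172698055 to 172833031, plus strand), the liver acute-phase protein CRP, was at 0, 0 and 0.38 FPKM in cTECs and 33.7, 20.8 and 27.9 FPKM in mTECs. It rested on 6 counts over the 3 cTEC libraries, all in replicate 5, so its fitted fold change depends on the prior count and is not given (adjusted p = 0.00324 from limma-voom). *Il4i1*, a secreted amino acid oxidase, was at 1.90, 2.86 and 4.28 FPKM in cTECs and 198, 77.00 and 131 FPKM in mTECs, a difference of −5.67 on the log2 scale (SE 0.53, adjusted p = 0.000239 from limma-voom). *Ptprq*, a phosphatase receptor of inner ear hair cells, was at 0.07, 0.21 and 0.30 FPKM in cTECs and 24.5, 10.8 and 15.3 FPKM in mTECs (adjusted p = 0.00145 from limma-voom). *Relt*, a receptor of the tumor necrosis factor family, was at 0.10, 0.59 and 1.87 FPKM in cTECs and 27.5, 16.03 and 25.5 FPKM in mTECs (adjusted p = 0.00356 from limma-voom). All 10 stayed at or below 4.28 FPKM in every cTEC sample, and the lowest mTEC value among them was 7.66 FPKM, for *Ppp1r1a*. *Gm12407* is annotated as a pseudogene, whose reads can be shared with related genes. In fits without 1 library, limma-voom lost *Crp* without cTEC replicates 2, 4 and 5 (adjusted p up to 0.0187), *Adm2* without any one library but mTEC replicate 2 (adjusted p up to 0.0411), *Ppp1r1a* without any one library but mTEC replicate 2 (adjusted p up to 0.0403), *Ms4a10* without any one library but mTEC replicate 2 (adjusted p up to 0.0288), *Gm12407* without any one library (adjusted p up to 0.0334), *Ptprq* without cTEC replicate 5 (adjusted p up to 0.0153), *Relt* without cTEC replicates 4 and 5 (adjusted p up to 0.0173), *Utf1* without any one library but mTEC replicates 1 and 2 (adjusted p up to 0.0308) and *Gfra2* without cTEC replicates 4 and 5 (adjusted p up to 0.0188).

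The levels themselves were led by genes that both cell types shared. *Cd74*, the invariant chain of MHC class II, was the most abundant transcript of cTECs at 6066, 6693 and 5544 FPKM and stood at 7639, 6281 and 7167 FPKM in mTECs (log2 fold change −0.26, SE 0.18, adjusted p = 0.345 from limma-voom). *Krt18* was at 7832, 6409 and 3441 FPKM in cTECs and 2547, 4918 and 4428 FPKM in mTECs, and its groups overlapped (log2 fold change 0.47, adjusted p = 0.369 from limma-voom). *Ctsl*, *Tbata* and *Ccl25* were among the 10 most abundant genes of cTECs, and *Ccl21a* and *Krt5* among those of mTECs. The remainder of both lists held *Eef1a1*, *B2m*, *Actb*, *mt-Co1* and nuclear pseudogene copies of mitochondrial genes (*Gm28437*, *Gm28661* and *Gm10925*), whose reads cannot be assigned with certainty.

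A list of 8 known cTEC genes had 7 called higher in cTECs and none higher in mTECs (87.5%, against 4.27% of all genes tested), with a median log2 fold change of 2.78 against −0.11 over all genes tested. It joins the peptide-making *Psmb11*, *Prss16* and *Ctsl* with *Cd83*, *Ly75*, *Enpep*, *Tbata* and *Ackr4*, which have other roles. All 8 were known as cTEC genes when the list was made. *Ctsl*, the lysosomal protease that makes class II peptides in the cortex, was at 3151, 3804 and 4048 FPKM in cTECs and 1284, 1895 and 1558 FPKM in mTECs. Its groups did not overlap, yet the difference was close to the threshold on fold change (log2 fold change 1.17, SE 0.19, adjusted p = 0.00465 from limma-voom). *Tbata*, a thymus and brain gene, was at 3068, 3519.7 and 3628 FPKM in cTECs and 1133, 1954 and 1462 FPKM in mTECs and lay as close to it (log2 fold change 1.12, SE 0.21, adjusted p = 0.00986 from limma-voom). *Enpep*, the aminopeptidase known as Ly51 that is commonly used to sort cTECs, was at 37.7, 45.2 and 71.3 FPKM in cTECs and 5.90, 8.15 and 4.85 FPKM in mTECs (log2 fold change 3.14, SE 0.30, adjusted p = 0.000258 from limma-voom). *Ackr4*, a scavenger receptor for CCL19, CCL21 and CCL25, was at 188, 197 and 143 FPKM in cTECs and 19.5, 34.4 and 20.6 FPKM in mTECs (log2 fold change 2.74, SE 0.25, adjusted p = 0.000227 from limma-voom). Leaving out 1 library in limma-voom ended the call of *Ctsl* without any one library but mTEC replicate 2 (adjusted p up to 0.0277) and *Tbata* without any one library but mTEC replicate 2 (adjusted p up to 0.0403), and the remaining 5 calls were kept.

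Of 14 genes that attract, nourish or instruct thymocytes, 4 were called higher in cTECs and none higher in mTECs by limma-voom (28.6%, median log2 fold change 1.01). *Fgf21*, a metabolic hormone, was at 0, 1.35 and 3.01 FPKM in cTECs and 89.3, 21.2 and 33.6 FPKM in mTECs. It was called higher in mTECs by edgeR and by DESeq2. These tools called 4 and 7 genes of the list higher in cTECs, beside 346 and 569 of all 17303 genes tested. *Cxcl12* (ENSMUSG00000061353.11, chromosome 6, 117168535 to 117181367, plus strand), the ligand of CXCR4, was at 857, 1099 and 1111 FPKM in cTECs and 108, 192 and 126 FPKM in mTECs, with all cTEC samples far above all mTEC samples (log2 fold change 2.90, SE 0.23, adjusted p = 0.000111 from limma-voom). *Kitl*, the stem cell factor for early precursors, was at 44.8, 41.7 and 40.9 FPKM in cTECs and 7.25, 11.5 and 8.58 FPKM in mTECs (log2 fold change 2.11, SE 0.27, adjusted p = 0.00122 from limma-voom). *Dll4*, the Notch ligand that commits precursors to the T lineage, was at 69.9, 45.1 and 57.8 FPKM in cTECs and 12.5, 28.3 and 14.7 FPKM in mTECs (log2 fold change 1.61, SE 0.30, adjusted p = 0.00868 from limma-voom), and *Jag2*, another Notch ligand, was at 91.2, 104 and 129 FPKM in cTECs and 34.6, 57.4 and 46.1 FPKM in mTECs (log2 fold change 1.196, SE 0.21, adjusted p = 0.0067 from limma-voom). *Ccl25*, the ligand of CCR9, was at 3774, 3543 and 2438 FPKM in cTECs and 688, 1662 and 1168 FPKM in mTECs. It did not overlap and missed the threshold (log2 fold change 1.46, SE 0.31, adjusted p = 0.0153 from limma-voom). *Il7*, the cytokine for thymocyte survival, was at 128, 125 and 109 FPKM in cTECs and 116, 202 and 183 FPKM in mTECs and its groups overlapped (log2 fold change −0.45, adjusted p = 0.195 from limma-voom). On omission of 1 library, limma-voom no longer called *Dll4* without any one library but mTEC replicate 2 (adjusted p up to 0.0491), *Jag2* without any one library but mTEC replicate 2 (adjusted p up to 0.0285) and *Kitl* without mTEC replicate 1 (adjusted p up to 0.0109), while *Cxcl12* kept its call.

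None of 12 transcription factors of the thymic epithelium was called by limma-voom or by edgeR. DESeq2 called 2 of them, beside 1830 of all 17303 genes tested. An unadjusted p under 0.05 was reached by 5 of the 12, beside 31.9% of all genes tested. *Foxn1* (ENSMUSG00000002057.4, chromosome 11, 78357577 to 78386558, minus strand), the master regulator of both cell types, was at 314, 209 and 135 FPKM in cTECs and 148, 260.2 and 192 FPKM in mTECs. The groups overlapped fully, with cTEC replicate 2 the highest and cTEC replicate 5 the lowest of the 6 samples (log2 fold change 0.02, SE 0.32, adjusted p = 0.976 from limma-voom), and the sign of this difference changed with the processing. *Pax1* was at 771, 688 and 434 FPKM in cTECs and 198, 361 and 289 FPKM in mTECs (log2 fold change 1.08, SE 0.28, adjusted p = 0.0316 from limma-voom), and *Pax9*, its relative, differed by 0.91 on the log2 scale (adjusted p = 0.0189 from limma-voom). *Trp63*, the factor of stratified epithelia, was at 91.4, 95.7 and 129.7 FPKM in cTECs and 57.9, 75.5 and 67.4 FPKM in mTECs (log2 fold change 0.66, adjusted p = 0.0479 from limma-voom).

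Regulators and costimulatory genes of mTECs had 6 calls of 17 tested (35.3%), each higher in mTECs, with 2 of the 17 past the filter through mTECs only (median log2 fold change −1.37). Beside *Aire* and *Fezf2* these were *Tnfrsf11a*, *Icosl*, *Cd80* and *Cd40*. *Tnfrsf11a*, the receptor RANK whose signal matures mTECs, was at 2.60, 3.13 and 4.48 FPKM in cTECs and 33.2, 20.4 and 24.1 FPKM in mTECs (log2 fold change −3.38, SE 0.34, adjusted p = 0.000364 from limma-voom). *Icosl*, a ligand for T cell costimulation, was at 1.91, 2.01 and 2.79 FPKM in cTECs and 32.7, 12.5 and 22.2 FPKM in mTECs (log2 fold change −3.53, SE 0.50, adjusted p = 0.00243 from limma-voom), and *Cd80*, a ligand of CD28, was at 0.48, 0.64 and 0.77 FPKM in cTECs and 5.60, 4.16 and 5.42 FPKM in mTECs (log2 fold change −3.06, SE 0.57, adjusted p = 0.00843 from limma-voom). *Cd40*, the receptor of CD40L, was at 13.1, 25.4 and 17.3 FPKM in cTECs and 58.2, 37.8 and 40.8 FPKM in mTECs (log2 fold change −1.37, SE 0.24, adjusted p = 0.00622 from limma-voom). *Relb*, the NF-κB subunit required for mTECs, was at 60.7, 60.1 and 57.5 FPKM in cTECs and 110.2, 93.9 and 98.5 FPKM in mTECs. Its groups did not overlap, but the difference was under 2-fold (log2 fold change −0.83, SE 0.15, adjusted p = 0.00817 from limma-voom). Among fits to 5 libraries, limma-voom no longer called *Cd40* without any one library but mTEC replicate 2 (adjusted p up to 0.0294), *Cd80* without any one library (adjusted p up to 0.0372) and *Icosl* without cTEC replicates 2, 4 and 5 (adjusted p up to 0.0146), whereas *Tnfrsf11a* kept its call.

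Of 12 chemokines of the medulla, 3 were called higher in mTECs and none higher in cTECs (25%), and 4 passed the filter through mTECs only. Beside *Ccl21a*, *Ccl19*, the other CCR7 ligand, was at 21.6, 22.2 and 29.9 FPKM in cTECs and 251, 120.2 and 143 FPKM in mTECs (log2 fold change −2.92, SE 0.33, adjusted p = 0.000701 from limma-voom). *Cxcl9*, a ligand of CXCR3, was at 3.81, 5.78 and 13.7 FPKM in cTECs and 149, 61.9 and 37.1 FPKM in mTECs, with mTEC replicate 1 the highest (log2 fold change −3.92, SE 0.65, adjusted p = 0.00488 from limma-voom). *Cxcl10*, from the same family, was at 835, 284 and 155 FPKM in mTECs and highest in cTEC replicate 5, as given above, and its groups overlapped (log2 fold change 0.42, adjusted p = 0.717 from limma-voom). *Ccl19* also has genomic copies that can share its reads. The call of *Cxcl9* was lost without cTEC replicates 2, 4 and 5 (adjusted p up to 0.025) in limma-voom.

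Of 10 keratins, 3 were called higher in mTECs and none higher in cTECs (30%). *Krt14* (ENSMUSG00000045545.8, chromosome 11, 100203162 to 100207548, minus strand), a keratin of basal cells, was at 149, 211 and 243 FPKM in cTECs and 1003, 862 and 1068 FPKM in mTECs (log2 fold change −2.57, SE 0.21, adjusted p = 0.00013 from limma-voom). *Krt5*, its partner, was at 1759, 1535 and 1103 FPKM in cTECs and 2788, 4409.7 and 4819 FPKM in mTECs (log2 fold change −1.52, SE 0.26, adjusted p = 0.00588 from limma-voom), and *Krt17* was at 1036, 1063 and 734 FPKM in cTECs and 2255, 2343 and 2486 FPKM in mTECs (log2 fold change −1.41, SE 0.20, adjusted p = 0.00215 from limma-voom). *Krt8*, the simple keratin that marks cTECs, was at 3456, 3336 and 2148 FPKM in cTECs and 1452, 2032 and 2007 FPKM in mTECs, with a log2 fold change of 0.62 that missed the threshold (adjusted p = 0.109 from limma-voom). Of 15 claudins and junction genes, 2 were called (13.3%), *Tjp3* (2.00, 1.46 and 3.16 FPKM in cTECs and 27.9, 9.95 and 14.03 FPKM in mTECs, log2 fold change −3.05, SE 0.44, adjusted p = 0.00247 from limma-voom) and *Dsg2* (64.7, 52.7 and 35.2 FPKM in cTECs and 153, 151 and 147 FPKM in mTECs, log2 fold change −1.67, SE 0.22, adjusted p = 0.00133 from limma-voom), both higher in mTECs. With 5 libraries, limma-voom did not call *Krt5* without any one library but cTEC replicate 2 and mTEC replicate 1 (adjusted p up to 0.031), *Krt17* without mTEC replicates 1 and 4 (adjusted p up to 0.0142), *Tjp3* without cTEC replicates 4 and 5 (adjusted p up to 0.0131) and *Dsg2* without mTEC replicate 1 (adjusted p up to 0.0114), and *Krt14* was called in every such fit.

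Genes of the specialised mTEC types were mostly low. Of 24 tested microfold and secretory genes, 2 were called, both higher in mTECs (8.33%). Of the 24, 11 passed the filter through mTECs only, which fixes the order of their mean FPKM. *Spib* (ENSMUSG00000008193.13, chromosome 7, 44525993 to 44532071, minus strand), a transcription factor of microfold cells, was at 6.26, 6.69 and 9.88 FPKM in cTECs and 183, 88.8 and 115 FPKM in mTECs (log2 fold change −4.05, SE 0.28, adjusted p = 6.64e-05 from limma-voom), and *Insm1*, a factor of neuroendocrine cells, was at 0.77, 0.94 and 0.80 FPKM in cTECs and 23.98, 7.95 and 12.1 FPKM in mTECs (log2 fold change −4.03, SE 0.71, adjusted p = 0.00648 from limma-voom). Of 19 tested genes of the cornified layer, 7 passed the filter in this way and 2 were called higher in mTECs (10.5%), the desmosomal cadherin *Dsg1a* at 0.88, 0.93 and 1.11 FPKM in cTECs and 40.1, 13.96 and 18.3 FPKM in mTECs (log2 fold change −4.60, SE 0.57, adjusted p = 0.00101 from limma-voom) and *Skint7*, a member of a gene family of thymus and skin, at 3.86, 4.04 and 10.3 FPKM in cTECs and 31.7, 24.6 and 25.04 FPKM in mTECs (log2 fold change −2.67, SE 0.33, adjusted p = 0.00106 from limma-voom). Of 17 tested genes of thymic tuft cells, none was called by limma-voom and 1 was called by each of edgeR and DESeq2. Over all 17303 genes tested, edgeR called 902 and DESeq2 1830. An unadjusted p under 0.05 was reached by 6 of the 17, beside 31.9% of all genes tested. *Pou2f3*, the defining factor of tuft cells, was at 5.58, 6.41 and 7.50 FPKM in cTECs and 16.2, 11.5 and 16.4 FPKM in mTECs. Its groups did not overlap (log2 fold change −1.203, SE 0.24, adjusted p = 0.0107 from limma-voom). *Dsg1a* and *Skint7* belong to families of near-identical genes, so their levels are uncertain. Calls of limma-voom were lost for *Insm1* without any one library but mTEC replicates 1 and 2 (adjusted p up to 0.0302) and *Dsg1a* without cTEC replicate 5 (adjusted p up to 0.011). *Skint7* kept its call without each library but lost it in a fit to the 36 samples of the 6 replicated time points.

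Of 15 tested tissue-restricted antigens, *Crp* was the 1 call (6.67%). The filter let 9 of them through by their mTEC level only, so that the order of their mean FPKM was set by the filter. *Csn2*, the milk protein beta-casein, was at 3.23, 0 and 4.19 FPKM in cTECs and 190.3, 27.2 and 42.7 FPKM in mTECs and missed the threshold, with mTEC replicate 1 far above the rest (adjusted p = 0.0769 from limma-voom). *Apoa1*, an apolipoprotein of liver and gut, was at 0, 0 and 0.20 FPKM in cTECs and 15.4, 3.97 and 4.84 FPKM in mTECs (adjusted p = 0.0177 from limma-voom). *Pth*, parathyroid hormone, had its highest values in cTECs, with 61.97, 146 and 17.9 FPKM in mTECs against the cTEC values given above (log2 fold change 1.94, adjusted p = 0.196 from limma-voom), and its cTEC level rested on replicate 5.

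At a depth of 4561199 counts per library, to which every library was drawn down by calculation, the expected number of genes with at least 3 counts was 14871 ± 360 in cTECs and 16353 ± 671 in mTECs (SD, n = 3). The 3 mTEC samples, from 15788 to 17095, lay above the 3 cTEC samples, from 14574 to 15271. The difference was −1482 genes (two-sided exact permutation p = 0.1, the smallest that 3 samples against 3 can give). At other time points this difference was −869 genes in NPC, −2063 at D-2, −141 at D0, −309 at D3 and −1045 at D12. At D-2 the groups did not overlap either, with cTECs up to 16525 and mTECs from 17467 (exact permutation p = 0.1, again the smallest possible). In NPC and at D0, D3 and D12 the exact permutation p was 0.3 or more. At D6, 741 genes with a mean of at least 0.5 FPKM in mTECs had no count in any cTEC library, and 261 genes the reverse, in libraries that summed to 65189867 counts for cTECs and 35139427 for mTECs. Only 3 of the 741 were called. Of the 261, at most 3 can have been called, since 3 cTEC-higher calls had a mean below 0.5 FPKM in mTECs.

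For antigen presentation through MHC class II, 2 of 13 genes were called (15.4%). An unadjusted p of 0.05 was passed by 7 of the 13, beside 31.9% of all genes tested. In this pathway, *Ctsl* was called higher in cTECs and *Ctss*, the protease that takes its place in other antigen-presenting cells, higher in mTECs, at 2.23, 5.13 and 4.52 FPKM in cTECs and 56.9, 25.7 and 36.4 FPKM in mTECs (log2 fold change −3.43, SE 0.49, adjusted p = 0.00249 from limma-voom). *H2-Ab1*, a class II chain, was at 2611, 3159 and 2492 FPKM in cTECs and 2872, 2538 and 2686 FPKM in mTECs (log2 fold change −0.06, adjusted p = 0.852 from limma-voom), and *Ciita*, the class II transactivator, differed by −0.04 on the log2 scale (adjusted p = 0.911 from limma-voom). The remaining 11 genes were not called. Among 20 genes of class I and the proteasome, 8 passed an unadjusted p of 0.05, beside 31.9% of all genes tested. The 1 call (5%, near the 4.27% of all genes) was *Psme1* (ENSMUSG00000022216.16, chromosome 14, 55578123 to 55581529, plus strand), a subunit of the PA28 activator. It was at 58.6, 84.9 and 68.2 FPKM in cTECs and 333, 239 and 267 FPKM in mTECs, higher in mTECs (log2 fold change −1.84, SE 0.19, adjusted p = 0.000414 from limma-voom). Its partner *Psme2* was at 357, 258 and 202 FPKM in cTECs and 520.1, 312 and 394 FPKM in mTECs (log2 fold change −0.70, adjusted p = 0.07 from limma-voom). *Psmb9*, an immunoproteasome subunit, and *Tap2*, a subunit of the peptide transporter, passed the threshold on p but not that on fold change, with log2 fold changes of 1.00 (adjusted p = 0.00589) and 0.86 (adjusted p = 0.00675) from limma-voom. The limma-voom call of *Ctss* was lost without cTEC replicate 5 (adjusted p up to 0.0137), and that of *Psme1* was kept.

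**Figure D3:**
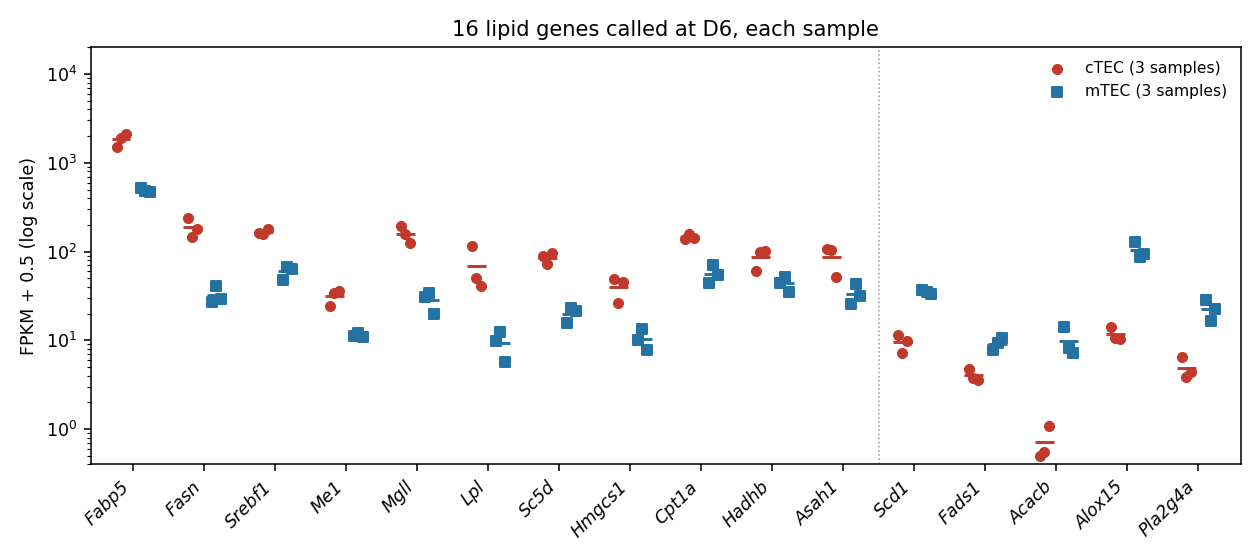
FPKM + 0.5 (log axis) of 16 lipid genes called at D6 in each sample, with circles for 3 cTEC samples, squares for 3 mTEC samples and a bar at each mean. The 11 genes left of the dotted line were called higher in cTECs and the 5 right of it higher in mTECs, and for every gene the 3 samples of one cell type lie above the 3 of the other.

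Lipid genes followed no single direction. *Fabp5* (ENSMUSG00000027533.10, chromosome 3, 10012548 to 10016607, plus strand) was by far the most abundant gene of fatty acid binding, at 1496, 1922 and 2090.3 FPKM in cTECs and 517, 479 and 470.4 FPKM in mTECs. The 3 mTEC samples lay close together and each cTEC sample was well above them, with means of 1836 ± 306 FPKM in cTECs and 489 ± 24.97 FPKM in mTECs (SD, n = 3), a ratio of 3.76 (log2 fold change 1.84, SE 0.17, adjusted p = 0.00023 from limma-voom). It kept its call in all 19 alternatives. Of 13 tested genes for proteins that bind fatty acids or retinoids, *Fabp5* was the 1 call of limma-voom (7.69%). DESeq2 called it too, and 5 others higher in mTECs, beside 1261 of all 17303 genes tested that DESeq2 called higher in mTECs. The filter let 9 of the 13 through by their mTEC level only, which fixes the order of their mean FPKM. *Fabp4*, the form of fat cells and macrophages, was at 0.72, 6.51 and 8.41 FPKM in cTECs and 37.5, 6.77 and 9.17 FPKM in mTECs (adjusted p = 0.118 from limma-voom), and *Fabp6*, the ileal bile acid binder, was at 0, 0 and 0.79 FPKM in cTECs and 35.7, 4.17 and 9.98 FPKM in mTECs (adjusted p = 0.0459 from limma-voom). No count was seen in cTECs for 5 of the 15 genes of the list, among them *Fabp2*, *Fabp7* and *Pmp2*, whose highest values in mTECs were 1.24, 3.55 and 1.84 FPKM.

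Genes of lipid uptake and droplets gave 2 calls of 23 tested (8.7%), both higher in cTECs, and a list median of −0.05. *Mgll*, which splits monoacylglycerol, was at 193, 156 and 126 FPKM in cTECs and 30.6, 33.7 and 19.4 FPKM in mTECs (log2 fold change 2.51, SE 0.20, adjusted p = 0.000111 from limma-voom). *Lpl*, which releases fatty acids from lipoproteins, was at 116, 50.3 and 40.6 FPKM in cTECs and 9.24, 12.02 and 5.25 FPKM in mTECs, with cTEC replicate 2 the highest (log2 fold change 2.61, SE 0.45, adjusted p = 0.00607 from limma-voom). *Plin2*, which coats lipid droplets, was at 28.4, 19.7 and 13.5 FPKM in cTECs and 26.4, 26.8 and 23.8 FPKM in mTECs and overlapped (log2 fold change −0.43, adjusted p = 0.152 from limma-voom). *Cd36*, a fatty acid receptor, was below the filter, with a highest value of 0.14 FPKM. The limma-voom call of *Lpl* was lost without any one library but cTEC replicates 2 and 5 (adjusted p up to 0.0454), and that of *Mgll* was kept.

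Fatty acid synthesis was split, with 3 of 18 tested genes called in each direction (33.3% called in all) and a median of 0.12. *Fasn* (ENSMUSG00000025153.9, chromosome 11, 120805846 to 120824547, minus strand), the fatty acid synthase, was at 237, 147 and 179.7 FPKM in cTECs and 26.3, 40.2 and 28.5 FPKM in mTECs. Every cTEC sample was at least 3 times the highest mTEC sample, and the means were 188 ± 45.9 FPKM in cTECs and 31.7 ± 7.46 FPKM in mTECs (SD, n = 3; log2 fold change 2.52, SE 0.27, adjusted p = 0.000549 from limma-voom). *Srebf1*, the transcription factor of fatty acid synthesis, was at 160.4, 158 and 178 FPKM in cTECs and 47.8, 66.6 and 63.2 FPKM in mTECs (log2 fold change 1.51, SE 0.26, adjusted p = 0.00649 from limma-voom), and *Me1*, which supplies NADPH, was at 23.7, 33.9 and 35.5 FPKM in cTECs and 10.6, 11.7 and 10.5 FPKM in mTECs (log2 fold change 1.55, SE 0.22, adjusted p = 0.00245 from limma-voom). In the other direction, *Scd1*, a stearoyl-CoA desaturase, was at 10.9, 6.71 and 9.30 FPKM in cTECs and 36.03, 34.9 and 32.8 FPKM in mTECs (log2 fold change −2.04, SE 0.20, adjusted p = 0.000365 from limma-voom). Its relative *Scd2* was at 183, 94.6 and 166 FPKM in cTECs and 51.97, 85.03 and 59.5 FPKM in mTECs and had the opposite sign without passing the test (log2 fold change 1.10, SE 0.27, adjusted p = 0.0248 from limma-voom). *Fads1*, a desaturase of polyunsaturated fatty acids, was at 4.20, 3.27 and 3.10 FPKM in cTECs and 7.35, 8.72 and 10.01 FPKM in mTECs (log2 fold change −1.26, SE 0.24, adjusted p = 0.0097 from limma-voom). *Acacb*, the acetyl-CoA carboxylase of the mitochondrial surface, was at 0, 0.05 and 0.59 FPKM in cTECs and 13.6, 7.70 and 6.74 FPKM in mTECs (adjusted p = 0.00737 from limma-voom), while *Acaca*, the cytosolic form, was at 11.5, 12.1 and 8.99 FPKM in cTECs and 5.57, 10.8 and 10.4 FPKM in mTECs (log2 fold change 0.66, adjusted p = 0.0556 from limma-voom). The fold change of *Acacb* is not given because it rested on 34 counts in cTECs. With 1 library left out, limma-voom calls were lost for *Srebf1* without any one library but mTEC replicate 2 (adjusted p up to 0.0242), *Me1* without mTEC replicates 2 and 4 (adjusted p up to 0.0134), *Fads1* without any one library (adjusted p up to 0.0429) and *Acacb* without any one library but mTEC replicate 2 (adjusted p up to 0.0339), and those of *Fasn* and *Scd1* were kept.

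For cholesterol, 19 of 28 tested genes had a positive log2 fold change, and the list median was 0.72. The 2 calls (7.14%), *Sc5d* and *Hmgcs1*, were both higher in cTECs. DESeq2 called 10 higher in cTECs and 1 higher in mTECs, beside 569 and 1261 of all 17303 genes tested. *Sc5d*, a sterol desaturase, was at 88.6, 71.2 and 95.8 FPKM in cTECs and 15.3, 22.6 and 20.7 FPKM in mTECs (log2 fold change 2.19, SE 0.21, adjusted p = 0.000295 from limma-voom). *Hmgcs1*, which starts the mevalonate pathway, was at 48.4, 26.1 and 45.2 FPKM in cTECs and 9.55, 12.96 and 7.24 FPKM in mTECs (log2 fold change 1.83, SE 0.30, adjusted p = 0.00469 from limma-voom). *Msmo1*, *Sqle*, *Fdps* and *Lss* of the same pathway missed the threshold, with log2 fold changes of 1.78, 1.12, 1.33 and 1.44 and adjusted p from 0.019 to 0.0456 (limma-voom). *Apoe*, the carrier protein, was at 842, 1336 and 736 FPKM in cTECs and 848, 916 and 1281 FPKM in mTECs and overlapped (log2 fold change −0.23, adjusted p = 0.587 from limma-voom). That of *Hmgcs1* was lost in limma-voom without any one library but cTEC replicate 4 (adjusted p up to 0.0388), and that of *Sc5d* was kept.

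Fatty acid oxidation gave 3 calls of 27 (11.1%), each higher in cTECs (median 0.21), of which 2 are described. *Cpt1a*, which controls entry of fatty acids into mitochondria, was at 136, 158 and 139.97 FPKM in cTECs and 43.5, 70.8 and 53.8 FPKM in mTECs (log2 fold change 1.34, SE 0.20, adjusted p = 0.00291 from limma-voom). *Hadhb*, a subunit of the trifunctional protein, was at 60.7, 98.7 and 101 FPKM in cTECs and 44.2, 50.9 and 34.5 FPKM in mTECs (log2 fold change 1.05, SE 0.19, adjusted p = 0.00809 from limma-voom) and lay just past the threshold on fold change. Both calls depended on single libraries, and limma-voom lost *Cpt1a* without cTEC replicate 4 or mTEC replicates 1 and 4 (adjusted p up to 0.0157) and *Hadhb* without any one library but cTEC replicate 2 (adjusted p up to 0.0333).

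Among 26 tested enzymes of eicosanoids and sphingolipids, 2 were called higher in mTECs and 1 higher in cTECs (11.5%), and 5 passed the filter through mTECs only. *Alox15* (ENSMUSG00000018924.6, chromosome 11, 70344152 to 70352031, minus strand), a lipoxygenase of arachidonic and linoleic acid, was at 13.7, 10.1 and 9.89 FPKM in cTECs and 128, 86.8 and 94.3 FPKM in mTECs. All mTEC samples were more than 6 times the highest cTEC sample (log2 fold change −3.70, SE 0.22, adjusted p = 4.07e-05 from limma-voom). *Pla2g4a*, the phospholipase that frees arachidonic acid, was at 5.97, 3.32 and 3.94 FPKM in cTECs and 27.9, 15.8 and 22.04 FPKM in mTECs (log2 fold change −2.22, SE 0.34, adjusted p = 0.00345 from limma-voom). *Ptgs2*, the inducible cyclooxygenase, was at 1.45, 0.31 and 1.85 FPKM in cTECs and 25.6, 8.72 and 6.87 FPKM in mTECs, without overlap and past the fold but not the p (log2 fold change −4.10, SE 0.83, adjusted p = 0.0121 from limma-voom). *Asah1*, the acid ceramidase, was higher in cTECs at 106, 103 and 51.3 FPKM in cTECs and 25.1, 42.7 and 31.3 FPKM in mTECs (log2 fold change 1.16, SE 0.21, adjusted p = 0.00724 from limma-voom). Leaving out 1 library, limma-voom lost *Pla2g4a* without any one library but mTEC replicates 1 and 2 (adjusted p up to 0.0151) and *Asah1* without any one library but cTEC replicate 5 (adjusted p up to 0.0443), while *Alox15* kept its call.

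**Figure D4:**
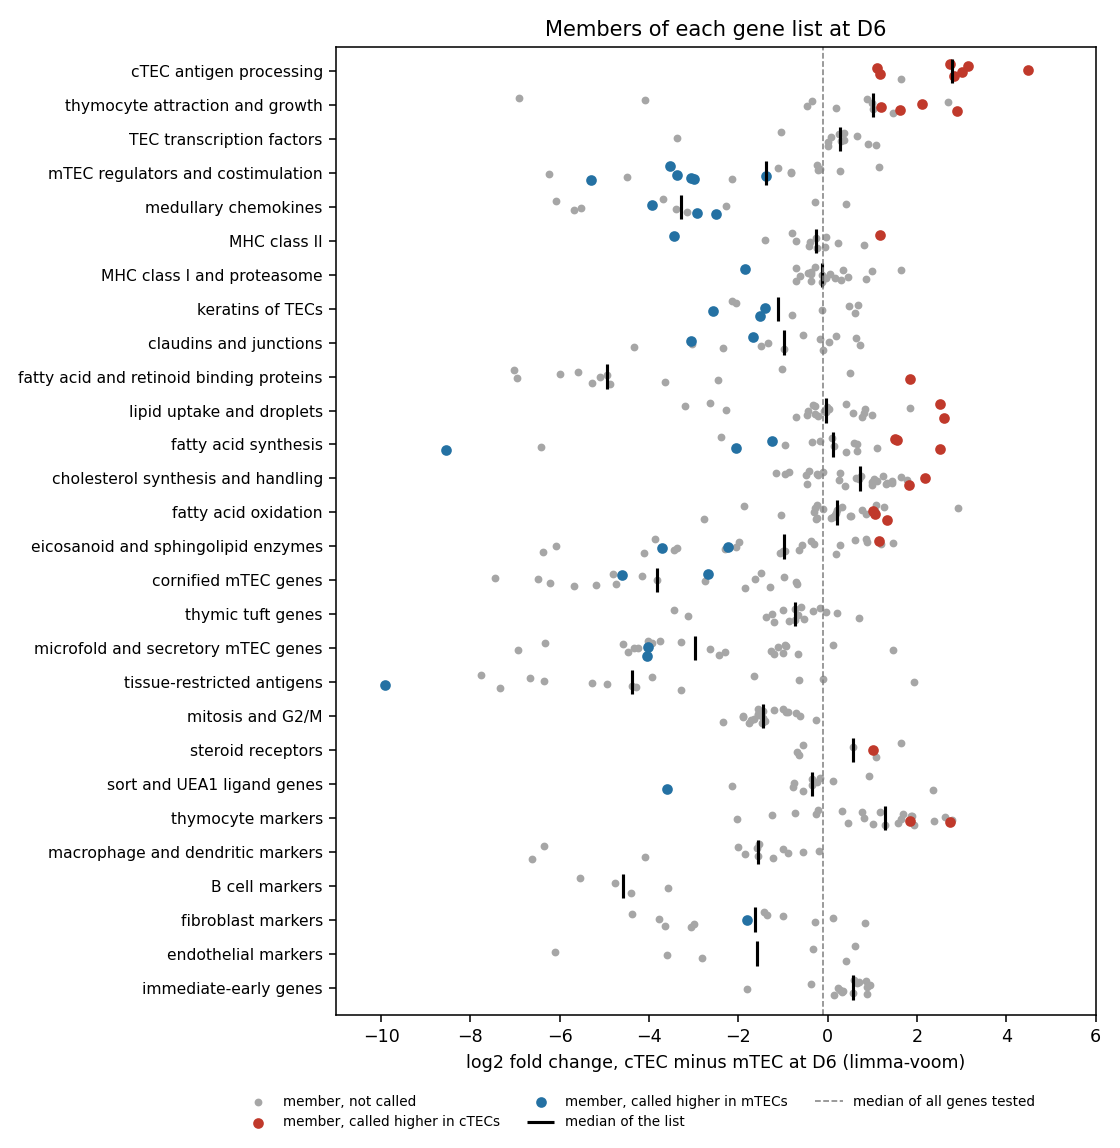
Log2 fold change (x, cTEC minus mTEC at D6, limma-voom) of each tested member of the 28 gene lists (y), with called members in colour, a bar at each list's median and a dashed line at the median of all genes tested, −0.11. The cTEC antigen processing list has a median of 2.78, and *Fabp5* is called toward cTECs among fatty acid and retinoid binding proteins. That list holds 9 of 13 genes that passed the filter through mTECs only, so that their mean FPKM had to be higher in mTECs.

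Of 20 genes of mitosis, all had a negative log2 fold change (median −1.45) but none was called by limma-voom. Of these genes, 2 were called by edgeR and 6 by DESeq2, beside 902 and 1830 of all 17303 genes tested. An unadjusted p under 0.05 was reached by 15 of the 20, beside 31.9% of all genes tested. The summed FPKM of the 20 genes was 71.5, 76.1 and 64.8 in cTECs and 296, 97.3 and 138 in mTECs. The groups thus did not overlap, and mTEC replicate 1 stood above the rest. *Top2a*, a topoisomerase of dividing cells, was at 10.5, 4.81 and 7.72 FPKM in cTECs and 41.7, 18.7 and 16.98 FPKM in mTECs (log2 fold change −1.76, SE 0.34, adjusted p = 0.0106 from limma-voom). Of 7 tested receptors of steroids, 1 was called (14.3%), the glucocorticoid receptor *Nr3c1*, at 38.7, 36.3 and 39.8 FPKM in cTECs and 19.2, 22.98 and 16.6 FPKM in mTECs (log2 fold change 1.01, SE 0.16, adjusted p = 0.00413 from limma-voom). The progesterone receptor *Pgr* was at 4.88, 6.67 and 8.36 FPKM in cTECs and 2.39, 3.31 and 2.49 FPKM in mTECs and did not overlap but missed the threshold (log2 fold change 1.08, SE 0.29, adjusted p = 0.0346 from limma-voom). The limma-voom call of *Nr3c1* was lost without any one library but cTEC replicate 5 and mTEC replicate 2 (adjusted p up to 0.0234). Its log2 fold change lay just past the threshold and was 0.93 without mTEC replicate 1, and DESeq2 did not call it.

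Markers of other cells in the sorted samples differed as well, and their part in the results above was not tested. The summed FPKM of 23 thymocyte markers was 129 to 163 in cTECs against 53.9 to 82.0 in mTECs, a difference of 1.11 on the log2 scale, and no marker was at 0 in all samples of a cell type. The 2 called members (8.7%) were *Cd8a* (9.04, 10.6 and 8.55 FPKM in cTECs and 2.01, 1.38 and 2.93 FPKM in mTECs; log2 fold change 2.75, SE 0.40, adjusted p = 0.00249 from limma-voom) and *Rag1* (6.47, 7.10 and 6.31 FPKM in cTECs and 2.56, 1.38 and 1.24 FPKM in mTECs; log2 fold change 1.84, SE 0.30, adjusted p = 0.00465 from limma-voom). For 18 macrophage and dendritic markers the sums were 25.1 to 28.3 in cTECs against 33.8 to 83.8 in mTECs (difference −0.83), and 3 of them were at 0 in all cTECs. For 6 B cell markers they were from 0 to 1.81 and from 2.77 to 10.8 (difference −1.99), and 2 were at 0 in all cTECs. These 3 lists did not overlap between the groups (two-sided exact permutation p = 0.1 for each, the smallest possible). For 13 fibroblast markers the sums overlapped, at 116 to 173 in cTECs against 143 to 193 in mTECs (difference −0.11, exact permutation p = 0.7), and 2 were at 0 in all cTECs, with *Dcn* the largest part at 99.00, 138 and 128 FPKM in cTECs and 91.9, 98.1 and 144 FPKM in mTECs and *Col5a1* the 1 call (log2 fold change −1.80, SE 0.27, adjusted p = 0.00325 from limma-voom). The sum mostly follows *Dcn*, and 10 of the 12 tested fibroblast markers had a negative log2 fold change (median −1.62), 3 of which passed the filter through mTECs only. For 11 endothelial markers they were from 3.27 to 6.48 and from 5.21 to 15.6 (difference −0.85, exact permutation p = 0.2), with 4 at 0 in all cTECs. With 5 libraries, the limma-voom calls lost were *Cd8a* without mTEC replicates 1, 2 and 4 (adjusted p up to 0.0186), *Rag1* without any one library but cTEC replicate 2 and mTEC replicate 1 (adjusted p up to 0.024) and *Col5a1* without cTEC replicate 4 or mTEC replicate 1 (adjusted p up to 0.0255).

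**Figure D5:**
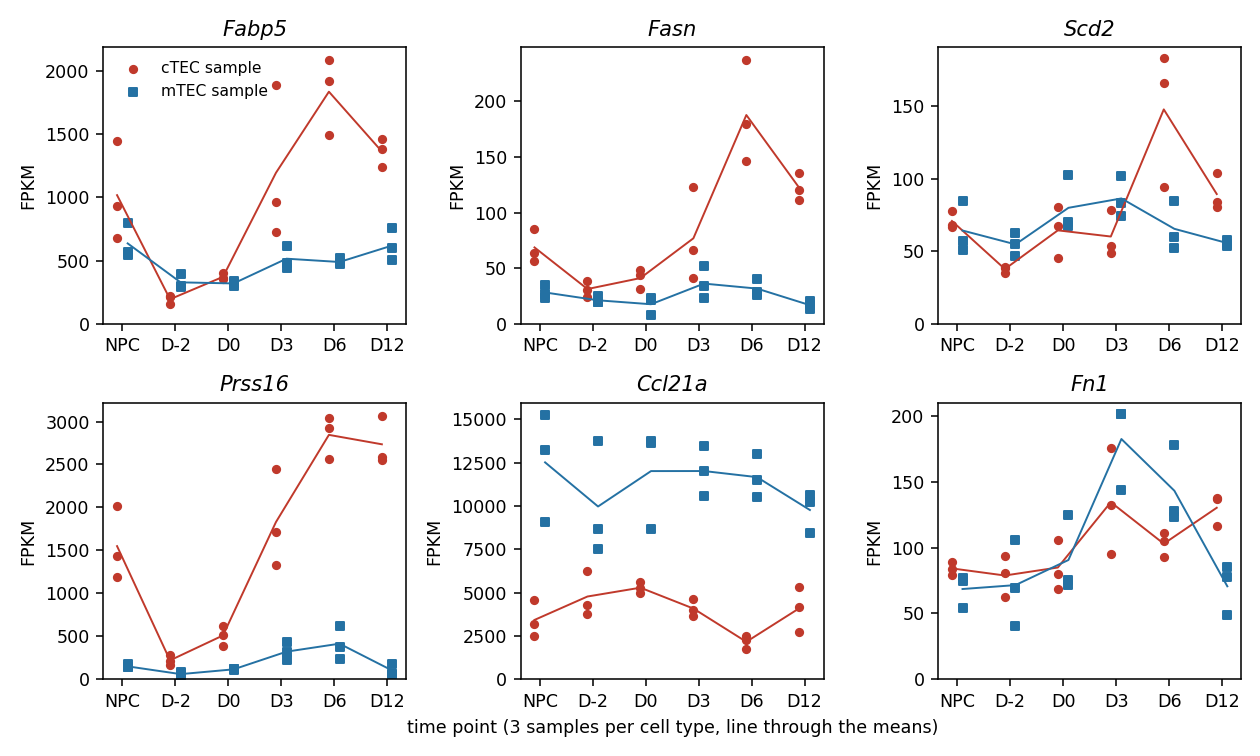
FPKM of 6 genes (y, linear axis from 0) in each sample of the 6 time points with 3 samples per cell type (x), with circles for cTECs, squares for mTECs and lines through the means. *Fabp5* is lower in cTECs than in mTECs at D-2 and higher from D0 to D12, and *Fn1* is lower in cTECs at D6 and higher at D12.

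Whether the contrast between the cell types at D6 differed from that at other time points was tested as an interaction in a limma-voom fit to 36 samples, over 22169 genes. These comparisons share the D6 samples. Against NPC, 0 genes were called (0% of those tested), with 1640 at an unadjusted p under 0.05, 0 called by edgeR and 34 by DESeq2. Against D-2, 0 genes were called (0%), with 1206 at an unadjusted p under 0.05, 2 called by edgeR and 56 by DESeq2. Against D12, 1 gene was called (0.00451%), with 1571 at an unadjusted p under 0.05, 0 called by edgeR and 25 by DESeq2, and with 2 calls without cTEC replicate 4 and 10 without mTEC replicate 1. The genes at an unadjusted p under 0.05 were 7.40% of those tested against NPC, 5.44% against D-2 and 7.09% against D12 (limma-voom). On simulated data the same fit for D6 against D-2 called 13% of genes given a 4-fold difference between the contrasts.

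The gene called against D12 was *Fn1* (ENSMUSG00000026193.15, chromosome 1, 71585520 to 71653200, minus strand), fibronectin, a matrix protein. At D6 it was at 105, 92.4 and 111 FPKM in cTECs and 123, 178 and 128 FPKM in mTECs, so that every mTEC sample was higher, and at D12 it was at 137, 137 and 116 FPKM in cTECs and 85.05, 48.9 and 77.7 FPKM in mTECs, so that every cTEC sample was higher. The difference between the contrasts was −1.83 (SE 0.23, adjusted p = 0.000189 from limma-voom). At D6 alone *Fn1* was not called (log2 fold change −0.56, SE 0.17, adjusted p = 0.0494 from limma-voom).

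*Fabp5* changed sides between late gestation and D6. At D-2 it was at 217, 212 and 153 FPKM in cTECs and 294, 393 and 297 FPKM in mTECs, the lower values all in cTECs. In NPC it was at 676, 1443 and 933 FPKM and 567, 543 and 798 FPKM, with overlap. At D12 it was at 1463, 1384 and 1242 FPKM and 504, 756 and 599 FPKM, again with all cTECs above. The cTEC-minus-mTEC difference at D6 exceeded that at D-2 by 2.52 (SE 0.45, adjusted p = 0.0218 from limma-voom), which misses the threshold of 0.01. Against NPC the difference was 1.03 (SE 0.31, adjusted p = 0.549 from limma-voom) and against D12 0.74 (SE 0.28, adjusted p = 0.496 from limma-voom).

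*Fasn* was at 38.6, 30.6 and 24.5 FPKM in cTECs and 19.6, 24.5 and 19.2 FPKM in mTECs at D-2, where the lowest cTEC value and the highest mTEC value met, and at 111, 119.9 and 136 FPKM and 16.7, 20.5 and 13.1 FPKM at D12. Its contrast at D6 differed from that at D-2 by 2.10 (SE 0.47, adjusted p = 0.208 from limma-voom) and from that at D12 by 0.02 (SE 0.38, adjusted p = 0.998 from limma-voom). *Scd2* had 38.5, 39.5 and 35.4 FPKM in cTECs and 47.1, 62.6 and 54.8 FPKM in mTECs at D-2, the reverse of its order at D6, a difference of 1.56 (SE 0.44, adjusted p = 0.416 from limma-voom). Neither gene was called.

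Levels of 4 cTEC genes in mTECs were set beside those of D12, with no test of mTECs alone between the time points. The 4 were picked without a rule, and the levels of other cTEC genes at D12 are not described here. *Prss16* in mTECs was at 242, 624 and 377 FPKM at D6 and 179, 60.1 and 63.1 FPKM at D12, against 3065, 2589 and 2551 FPKM in the cTECs of D12. The cTEC-minus-mTEC difference at D6 minus that at D12 was −2.46 (SE 0.50, adjusted p = 0.0656 from limma-voom). *Tbata* in mTECs was at 1133, 1954 and 1462 FPKM at D6 and 582, 286 and 384 FPKM at D12. *Ccl25* was at 688, 1662 and 1168 FPKM and 446, 283 and 340.3 FPKM, and *Psmb11* at 53.9, 178 and 108 FPKM and 32.04, 6.80 and 10.6 FPKM. For each of the 4 genes, the mTEC samples of D6 lay above those of D12. For *Tbata* the difference between the contrasts was −1.89 (SE 0.31, adjusted p = 0.0105 from limma-voom), for *Ccl25* −1.90 (SE 0.40, adjusted p = 0.0782 from limma-voom) and for *Psmb11* −3.25 (SE 0.76, adjusted p = 0.136 from limma-voom). All 4 missed the threshold of 0.01, and of these *Tbata* was below 0.05. The medullary gene *Ccl21a* was at 2754, 4193 and 5351 FPKM in cTECs and 10632, 8446 and 10219 FPKM in mTECs at D12, a difference between the contrasts of −1.09 (SE 0.39, adjusted p = 0.455 from limma-voom). For *Aire* it was 0.12 (SE 2.28, adjusted p = 0.998 from limma-voom).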

How the data were processed

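The authors sequenced polyA RNA (stranded KAPA libraries, NextSeq500) and, per the labels, processed reads with bcl2fastq 2.20, Trimmomatic 0.35, STAR 2.5.1b on GRCm38 and RSEM 1.2.28, which gave the deposited expected counts, TPM and FPKM per gene. The annotation release is not given in the sources used here. Of 50600 gene IDs, 50376 were named through GENCODE M21. Levels are FPKM as deposited by the authors, and the deposited TPM served only as an alternative for the summed markers.

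Genes with a mean of at least 0.5 FPKM in either cell type were tested on the rounded expected counts with limma-voom 3.58.1 after TMM scaling in edgeR 4.0.16 (R 4.3.3), and called where they differed 2-fold or more with a p, after Benjamini-Hochberg adjustment, no larger than 0.01. Values from fits across all genes are two-sided. Contrasts between time points were interactions in 1 fit to 36 samples. Named genes were 28 lists (475 genes, 474 in the files), the 10 largest called fold changes in each direction with at least 10 FPKM in the higher group and no overlap, the 10 most abundant genes per cell type and genes called between time points. Members and lists were chosen with earlier results of these data known. A few genes named outside this rule are said to be so. A few single genes are not reported here.

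Alternatives were edgeR, DESeq2 1.42.0, limma-trend on log2(FPKM + 0.5) or log2(FPKM + 0.1), other scalings, filters, weights, blocks and thresholds, and omission of each library. On simulated data in which 200 of 17303 genes changed 4-fold at D6, limma-voom called 45% of them with 1.1% false calls, edgeR 51.5% with 3.74% and DESeq2 58.5% with 12%. Each replicate was 1 mouse per the study's methods, but whether the cTECs and mTECs of a number came from the same mouse is not stated. Samples were therefore not treated as paired. The correlation of their deviations was from −0.057 to 0.071 for numbers in the characteristics and from −0.015 to 0.050 for those in titles. Samples that shared neither number had correlations from −0.139 to 0.120. The correlation within blocks fitted by limma for the title numbers was 0.21. So few samples cannot decide whether they were paired. Sequencing dates and batches were not analysed here.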

Additional observations from a re-analysis of the deposited data

Results flagged for a closer look

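A few genes had a contrast between cTECs and mTECs that differed between D6 and another time point, either by the interaction test or because all 3 samples of one cell type lay above the other at one time point and below it at the other. These comparisons share the D6 samples. For *Fn1*, which encodes fibronectin, the cTEC-minus-mTEC difference at D6 minus that at D12 was −1.83 (SE 0.23, adjusted p = 0.000189 from limma-voom), with every cTEC sample below the mTEC samples at D6 and above them at D12. Against NPC, where *Fn1* was at 79.2, 83.9 and 89.3 FPKM in cTECs and 53.8, 77.00 and 74.7 FPKM in mTECs, it was −1.08 (SE 0.28, adjusted p = 0.48 from limma-voom), which missed the threshold. Against D-2, *Fabp5* differed by 2.52 (SE 0.45, adjusted p = 0.0218 from limma-voom) and *Scd2* by 1.56 (SE 0.44, adjusted p = 0.416 from limma-voom). *Srxn1*, which reduces oxidised peroxiredoxins, was at 17.3, 20.97 and 15.5 FPKM in cTECs and 22.6, 21.5 and 25.5 FPKM in mTECs at D-2, and at 58.2, 70.7 and 45.9 FPKM in cTECs and 35.1, 20.7 and 23.5 FPKM in mTECs at D6, a difference of 1.64 (SE 0.38, adjusted p = 0.241 from limma-voom). *Ppp1r27*, a regulatory subunit of protein phosphatase 1, was at 0, 1.00 and 0.66 FPKM in cTECs and 2.77, 2.74 and 3.17 FPKM in mTECs at D-2 and at 38.7, 39.97 and 31.9 FPKM in cTECs and 1.09, 4.60 and 2.23 FPKM in mTECs at D6. Its fitted difference of 6.98 (SE 1.96, adjusted p = 0.416 from limma-voom) rests on low counts at D-2 and depends on the prior count.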

How the results depend on the processing

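Directions were stable and counts were not. No gene called at D6 was called in the opposite direction under any of 19 alternatives, and of the 84 called genes named in the text, 29 were called in all of them and none changed sign. Another 54 lost the call of limma-voom when at least 1 library was left out, with a largest adjusted p from 0.0109 to 0.0499. The fit to the 36 samples of the 6 replicated time points ended 16 of the 84 calls. Among these were *Aire*, *Cd40*, *Cd80*, *Icosl*, *Insm1*, *Skint7*, *Cd8a* and *Rag1*. The total of 739 calls became 1830 with DESeq2, 2042 at an adjusted p of 0.05, 1217 with no filter on FPKM and from 316 to 642 with 1 library left out (316 without mTEC replicate 1, 340 without mTEC replicate 4, 386 without cTEC replicate 4, 462 without cTEC replicate 5). The 257 calls higher in cTECs became 569 with DESeq2, 557 at 0.05, 427 with sample weights and from 57 to 181 with 1 library left out. The 482 calls higher in mTECs became 1261, 1485 and 879 with DESeq2, at 0.05 and with no filter, and from 259 to 483 with 1 library left out. The cause of these differences was not tested. For the contrast against NPC, the count of 0 became 34 with DESeq2 and 2 with no filter. Against D-2 it became 56 with DESeq2, 37 with sample weights, 4 at 0.05, 2 with edgeR and 1 without TMM, with no filter or with only 12 samples. Against both it stayed from 0 to 0 with 1 library left out. Against D12 the count of 1 became 25 with DESeq2, 22 with sample weights, 13 with no filter, 7 at 0.05, 3 with the replicate block and 0 with edgeR, and from 1 to 10 with 1 library left out (2 without cTEC replicate 4, 10 without mTEC replicate 1). The title number as a replicate block gave 906 calls at D6 and the characteristics number 761, and these numbers are not known to pair the samples. The log2 fold change of *Foxn1*, 0.02 in the main test, changed sign to −6.67e-05 with DESeq2 size factors, −0.0041 with the characteristics number as a block and −0.044 with sample weights. Without cTEC replicates 2 or 4 it was −0.30 and −0.022, without mTEC replicates 1 or 4 it was −0.17 and −0.0063, and without cTEC replicate 5 it was 0.36. With 1 library left out, the log2 differences in summed markers ranged from 0.95 to 1.25 for thymocytes, −1.08 to −0.43 for macrophages, −2.42 to −1.31 for B cells, −1.19 to −0.44 for endothelium and −0.21 to 0.074 for fibroblasts, the last positive without cTEC replicate 2 (0.074) or mTEC replicate 4 (0.021). The difference in genes detected ranged from −1765 to −1111. The 4561208 counts of mTEC replicate 4 limit what low genes can show.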

Other observations

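Other groups of genes outside the lists stood out among the calls at D6. They were chosen after their values were seen, so their tests are a description of genes picked for their difference. Some called genes higher in cTECs take part in redox balance or detoxification, for which no list was made or counted. *Nqo1*, a quinone reductase, was at 68.5, 108 and 93.7 FPKM in cTECs and 21.5, 22.7 and 18.1 FPKM in mTECs (log2 fold change 1.99, SE 0.23, adjusted p = 0.000793 from limma-voom). *Gsta4* and *Gstm2*, glutathione transferases with close relatives that can share reads, were at 36.8, 66.01 and 45.8 FPKM in cTECs and 9.08, 10.9 and 8.83 FPKM in mTECs (log2 fold change 2.26, SE 0.39, adjusted p = 0.00588 from limma-voom) and at 118, 135 and 94.9 FPKM in cTECs and 28.6, 45.3 and 40.6 FPKM in mTECs (log2 fold change 1.63, SE 0.24, adjusted p = 0.00306 from limma-voom). *Srxn1* was called in the same direction (log2 fold change 1.12, SE 0.20, adjusted p = 0.00752 from limma-voom), and *Pltp*, the phospholipid transfer protein, was at 1203, 1344 and 1032 FPKM in cTECs and 395, 617 and 591 FPKM in mTECs (log2 fold change 1.12, SE 0.21, adjusted p = 0.00845 from limma-voom). Limma-voom calls were lost for *Gsta4* without any one library but cTEC replicates 2 and 4 (adjusted p up to 0.0428), *Gstm2* without any one library but cTEC replicate 5 and mTEC replicate 2 (adjusted p up to 0.0215), *Srxn1* without any one library but cTEC replicate 5 (adjusted p up to 0.0292) and *Pltp* without any one library (adjusted p up to 0.0372), while *Nqo1* kept its call.

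Some called genes higher in mTECs belong to the contractile apparatus, which was likewise not counted as a list. *Acta2*, the actin of smooth muscle and myoepithelium, was at 47.8, 53.01 and 44.2 FPKM in cTECs and 304, 301 and 450.5 FPKM in mTECs (log2 fold change −2.89, SE 0.20, adjusted p = 6.64e-05 from limma-voom). *Tagln*, *Tpm2* and *Cald1*, which bind actin in the same cells, had log2 fold changes of −1.84, −2.16 and −2.25 (adjusted p = 0.00103, 0.000165 and 0.000206 from limma-voom), and mTEC levels of 483, 542 and 697, of 637, 594 and 749 and of 366, 315 and 331 FPKM. *Actn3*, an actinin of fast muscle, was at 164, 139 and 61.1 FPKM in cTECs and 358, 424 and 492 FPKM in mTECs (log2 fold change −1.93, SE 0.37, adjusted p = 0.0099 from limma-voom), a call lost without any one library but cTEC replicates 2 and 5 (adjusted p up to 0.0415). *Rgs5*, which also marks pericytes, was at 5.71, 4.85 and 6.11 FPKM in cTECs and 84.7, 30.4 and 47.6 FPKM in mTECs (log2 fold change −3.49, SE 0.37, adjusted p = 0.000544 from limma-voom), and the part of pericytes in these values was not tested. The summed fibroblast markers, of which *Dcn* was the largest part, overlapped between the groups, but 10 of 12 tested fibroblast markers had a negative log2 fold change (median −1.62), the same direction as these genes, and their part was not tested either.

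Also higher in mTECs was *Cyba*, a subunit of the phagocyte oxidase, at 6.35, 5.12 and 9.79 FPKM in cTECs and 194, 57.7 and 113 FPKM in mTECs (log2 fold change −4.15, SE 0.66, adjusted p = 0.00412 from limma-voom). The summed macrophage and dendritic markers moved in the same direction, from at most 28.3 FPKM in cTECs to at least 33.8 FPKM in mTECs, and their part was not tested. *Fcgbp*, a mucus protein, was abundant in both cell types, at 482, 532 and 497 FPKM in cTECs and 3194, 3253 and 3897 FPKM in mTECs (log2 fold change −2.87, SE 0.17, adjusted p = 4.07e-05 from limma-voom). The call of *Cyba* was lost without cTEC replicates 2, 4 and 5 (adjusted p up to 0.0263) in limma-voom, and that of *Fcgbp* was kept in all alternatives.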
